A study of Homo sapiens with 6 samples.

Results

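The messenger RNAs of 9 genes of the NRF2 pathway were followed in HEK293T cells after LOC550643 had been silenced. They were taken by symbol from the deposited table of 26391 genes, and all 9 (NFE2L2, KEAP1, HMOX1, GCLC, GCLM, NQO1, TXN, TXNRD1 and SRXN1) were found in it and passed the filter on low values that left 16245 genes for testing. HEK293T cells descend from embryonic kidney and express the large T antigen of SV40. The cells, grown without antibiotics, received by lipid transfection at 50% confluency either a pool of 4 siRNAs against LOC550643 (LOC550643 siRNA) or a non-silencing siRNA (control siRNA), and were lysed 48 hours after transfection. Each group held 3 libraries of poly-A selected RNA, read as pairs of 75 bases. The product of LOC550643 is a small protein that binds EDC4, on which the mRNA decapping enzymes assemble, and the study asked if its loss shifts steady-state mRNA levels. Since each group rests on 1 siRNA reagent, effects of lost LOC550643 and side effects of a reagent cannot be told apart.

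NRF2, encoded by NFE2L2, is a transcription factor that turns on genes against oxidative and electrophilic stress. In resting cells KEAP1 holds it and hands it to a CUL3 ubiquitin ligase for destruction. When reactive compounds modify KEAP1, NRF2 escapes, pairs with a small MAF protein and binds antioxidant response elements in its target genes, while BACH1 competes for those sites. Control of NRF2 is therefore largely at the level of the protein, which RNA sequencing does not measure. Among the targets, GCLC and GCLM form glutamate-cysteine ligase, the rate-limiting enzyme of glutathione synthesis. TXNRD1 reduces thioredoxin (TXN), SRXN1 repairs overoxidised peroxiredoxins, NQO1 reduces quinones, and HMOX1 breaks down heme.

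The silenced gene, listed as LINC01420, stood at 5.74 ± 0.292 CPM (reads of the gene as a share of its library, in the usual unit CPM, after TMM scaling of the libraries) in LOC550643 siRNA libraries and 52.9 ± 2.88 CPM in control libraries (SD, n = 3 each). Depth inferred from the deposited values was 8604236 to 35249993 read pairs in LOC550643 siRNA libraries, replicate 3 being the shallowest, and 32309964 to 36082404 in control libraries. Control replicate 2 differed most from the other control libraries, so the counts below are also given without it and without LOC550643 siRNA replicate 3. All 8 markers checked for the HEK293T lineage, among them VIM, KRT8 and NEFM, were above 1 CPM. Markers of other cell types were checked as well. PECAM1 and CDH5 (endothelial) summed to at most 0.0338 CPM in any LOC550643 siRNA library and 0.0604 CPM in any control library. The 5 fibroblast markers summed to 69.7 to 74.1 CPM in LOC550643 siRNA libraries and 72.6 to 81.4 CPM in control libraries. Of these, DCN and LUM averaged below 1 CPM. The 3 leukocyte markers summed to 1.49 to 2.14 CPM in LOC550643 siRNA libraries and 2.10 to 3.07 CPM in control libraries. Of these, PTPRC and CD3E averaged below 1 CPM. The part of other cell types in the results was not tested.

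GCLM and GCLC mRNAs fell and TXNRD1 mRNA rose, and the sequences around their start sites are shown because the antioxidant response element is the site through which NRF2 acts. Windows from 250 bases before to 50 bases after the start come from RefSeq (GRCh38.p14) for 8 of the 9 genes, all but HMOX1. Each of the 8 matched hg19 exactly at 1 place on the gene's chromosome, and the hg19 positions are given. Capitals mark the core TGACNNNGC, searched on both strands. The windows are at chr1:94374937-94375236 (minus strand, GCLM), chr6:53409850-53410149 (minus strand, GCLC) and chr12:104609307-104609606 (plus strand, TXNRD1).
GCLM: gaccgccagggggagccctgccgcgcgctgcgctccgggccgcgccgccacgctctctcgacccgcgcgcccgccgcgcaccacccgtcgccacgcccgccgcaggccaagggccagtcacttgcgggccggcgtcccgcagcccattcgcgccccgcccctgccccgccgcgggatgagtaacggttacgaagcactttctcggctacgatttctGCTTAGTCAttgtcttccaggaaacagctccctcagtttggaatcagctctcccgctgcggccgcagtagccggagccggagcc
GCLC: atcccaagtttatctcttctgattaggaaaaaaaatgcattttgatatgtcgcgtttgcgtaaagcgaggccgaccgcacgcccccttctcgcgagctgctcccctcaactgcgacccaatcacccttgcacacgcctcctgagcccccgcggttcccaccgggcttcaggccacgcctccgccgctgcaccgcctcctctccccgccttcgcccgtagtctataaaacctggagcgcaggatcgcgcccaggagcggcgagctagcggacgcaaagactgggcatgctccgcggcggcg
TXNRD1: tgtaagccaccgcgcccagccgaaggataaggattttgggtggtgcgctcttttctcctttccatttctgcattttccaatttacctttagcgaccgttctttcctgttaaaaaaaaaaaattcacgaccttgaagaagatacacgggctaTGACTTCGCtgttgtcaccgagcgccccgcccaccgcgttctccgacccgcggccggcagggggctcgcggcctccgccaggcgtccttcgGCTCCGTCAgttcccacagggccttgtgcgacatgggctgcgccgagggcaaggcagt
The core was in the windows of 2 of the 8 genes, against 13.3% of all 35116 RefSeq windows. GCLM has it once, on the opposite strand, as TGACTAAGC, and there it is followed by A, as it is in 3.18% of all windows. TXNRD1 has it as TGACTTCGC on the gene's strand and TGACGGAGC on the other. The TXNRD1 window belongs to a start 70903 bases upstream of that of the deposited transcript, so the levels below need not come from it. The GCLC window holds none, which says only that these letters are not within it. Among tested genes with a window, 18.7% of the 1719 with the core were higher and 19.3% lower after LOC550643 siRNA, against 18.6% and 18.7% of the 9834 without it.

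Neither NFE2L2 nor KEAP1 mRNA passed the test. NFE2L2 (NM_006164, chromosome 2, 178095031 to 178129859, minus strand, hg19) had 63.3, 64.1 and 65.2 CPM in LOC550643 siRNA libraries, against 68.4, 66.3 and 71.5 CPM in control libraries. The groups did not overlap, but the highest LOC550643 siRNA library stood close to the lowest control library. The log2 fold change, LOC550643 siRNA over control siRNA here and throughout and on the log2(value + 1 deposited unit) scale, was -0.10 (95% CI -0.24 to 0.05, limma adjusted p = 0.274). KEAP1 (NM_203500, chromosome 19, 10596796 to 10614054, minus strand) had 74.7, 85.7 and 77.3 CPM in LOC550643 siRNA libraries and 81.9, 75.1 and 78.9 CPM in control libraries, and the groups overlapped. Its log2 fold change was 0.01 (95% CI -0.15 to 0.17, limma adjusted p = 0.932), and its sign flipped with upper-quartile scaling (-0.02) and with library totals alone (-0.07). A missed threshold does not show that the levels were equal, and the intervals give the changes these libraries allow. Each interval, here and throughout, is for 1 gene and is not adjusted over the genes tested. A long noncoding RNA on the opposite strand shares 190 exon bases with NFE2L2 in GENCODE.

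Within each library the ratio of NFE2L2 to KEAP1 values was 0.848, 0.748 and 0.843 with LOC550643 siRNA and 0.835, 0.883 and 0.907 with control siRNA. The groups overlapped, and the log2 difference of -0.11 did not pass (exact permutation test, two-sided, p = 0.3, and 0.45 adjusted over 3 ratios). With 3 libraries against 3 this test cannot go below 0.1.

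Of the 9 members, 3 fell and 1 rose, all of them NRF2 targets. Among all tested genes, 35.7% passed at the same threshold (limma adjusted p under 0.05), 18.2% lower and 17.5% higher, so 4 of 9 is a share close to that of all genes. The members' median log2 fold change was -0.10, against -0.02 over all genes tested. Without LOC550643 siRNA replicate 3 the counts were again 3 and 1, beside 2532 lower and 2452 higher of all tested genes. Without control replicate 2 they were 4 and 1, beside 2882 and 2623.

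**Figure D1:**
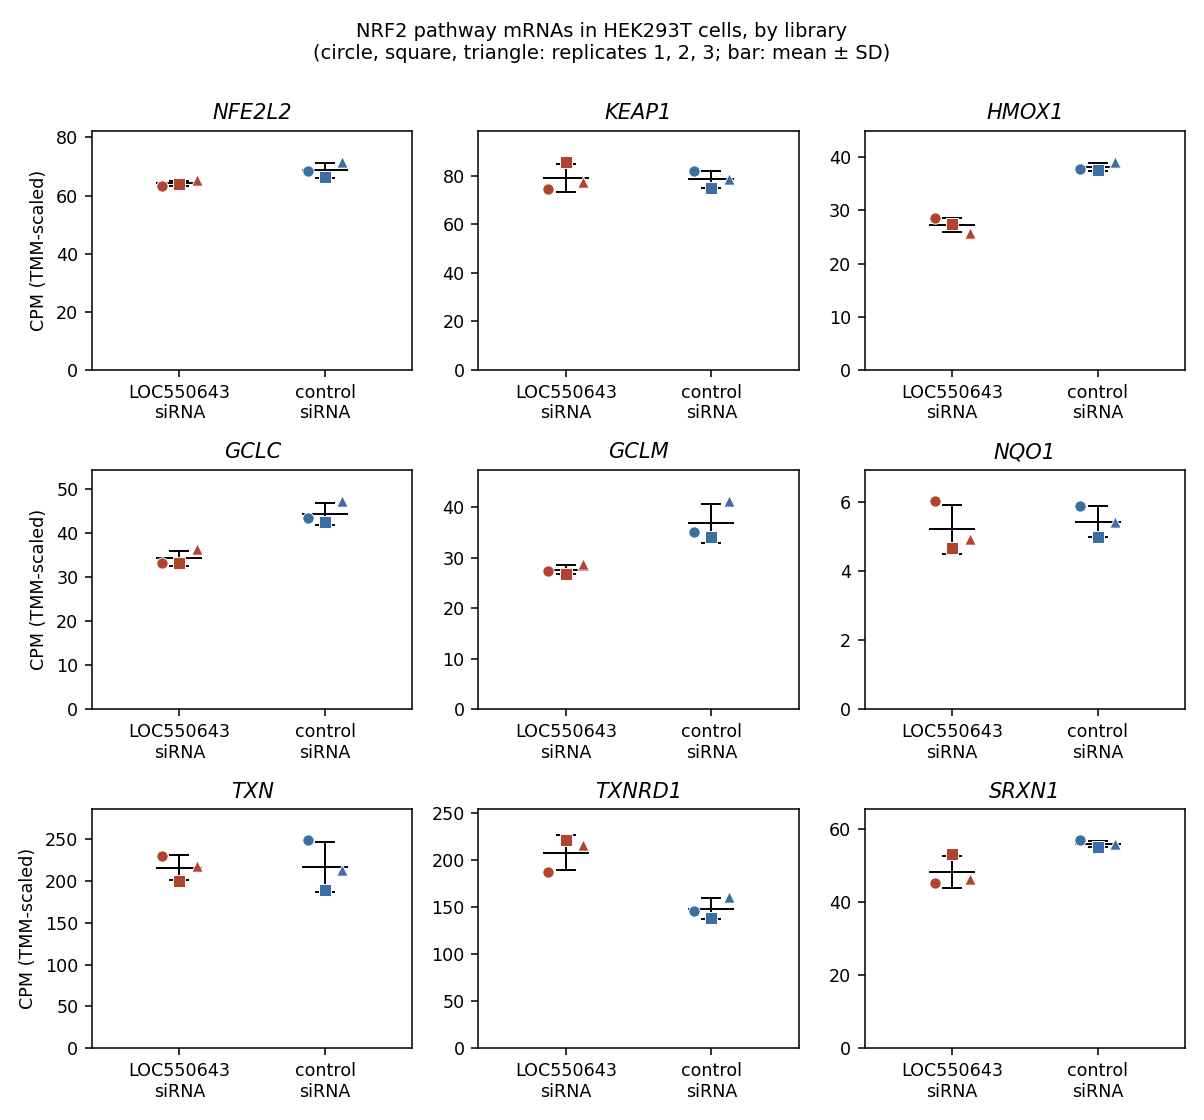
Level of each NRF2 pathway mRNA in CPM (vertical axis, starting at 0) in the 3 LOC550643 siRNA libraries and the 3 control siRNA libraries. Points are libraries and bars are mean ± SD. HMOX1, GCLC and GCLM lie lower with LOC550643 siRNA in every library, as do NFE2L2 and SRXN1, which did not pass the test. TXNRD1 lies higher, and KEAP1, NQO1 and TXN overlap between the groups.

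HMOX1, heme oxygenase, and TXNRD1 had changes of nearly the same size in opposite directions. It had 28.5, 27.5 and 25.8 CPM in LOC550643 siRNA libraries, against 37.9, 37.7 and 39.1 CPM in control libraries. Every LOC550643 siRNA library was well below every control library. It fell to 71.4% of the control level (log2 -0.49, SE 0.075, limma adjusted p = 0.000533). In the authors' deposited table the log2 fold change is -0.48 (adjusted p 2.25e-05). The gene lies on chromosome 22, 35777060 to 35790207 (NM_002133, plus strand), with 5 exons in the GENCODE annotation of GRCh37, and no other annotated gene overlaps it.

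The subunits of glutamate-cysteine ligase fell together. GCLC, the catalytic subunit (NM_001498, chromosome 6, 53362140 to 53409927, minus strand, 16 exons), had 33.1, 33.2 and 36.3 CPM in LOC550643 siRNA libraries and 43.3, 42.5 and 47.2 CPM in control libraries. GCLM, the modifier subunit (NM_002061, chromosome 1, 94350756 to 94375154, minus strand, 7 exons), had 27.4, 26.8 and 28.7 CPM with LOC550643 siRNA and 35.1, 34.2 and 41.2 CPM with control siRNA. For both genes all LOC550643 siRNA libraries were below all control libraries. GCLC fell to 77.2% of control (log2 -0.37, SE 0.077, limma adjusted p = 0.00326) and GCLM to 75.1% (log2 -0.41, SE 0.087, limma adjusted p = 0.00403). The GCLM to GCLC ratio was 0.828, 0.808 and 0.790 with LOC550643 siRNA, against 0.810, 0.804 and 0.872 with control siRNA, overlapping (exact permutation p = 0.6, adjusted 0.6). The log2 difference of that ratio was -0.03, and it was 0.003 without control replicate 3, the library where GCLM was highest. GCLC-AS1, on the opposite strand, shares 305 bases with GCLC exons in GENCODE. Since no strand option is given for the counting, reads there cannot be assigned.

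TXNRD1 moved the other way. It had 187.1, 221.1 and 216.5 CPM in LOC550643 siRNA libraries, against 146.4, 138.4 and 160.6 CPM in control libraries. The groups did not overlap, and the rise was to 140.2% of control (log2 0.49, SE 0.085, limma adjusted p = 0.00117). The listed transcript, NM_001261445, spans 104680460 to 104744085 on chromosome 12 (plus strand), and EID3 lies within it on the same strand with no shared exon bases in GENCODE. TXN, the substrate of TXNRD1 (NM_003329, chromosome 9, 113006092 to 113018920, minus strand), had 230.1, 200.3 and 217.3 CPM with LOC550643 siRNA and 248.2, 189.1 and 212.5 CPM with control siRNA. These overlapped, with a log2 fold change of 0.002 (95% CI -0.21 to 0.22, limma adjusted p = 0.991) whose sign turned negative with upper-quartile scaling (-0.03) and library totals (-0.07).

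The TXNRD1 to TXN ratio was 0.813, 1.104 and 0.996 in LOC550643 siRNA libraries and 0.590, 0.732 and 0.756 in control libraries. Every LOC550643 siRNA library had the higher ratio. The difference was 0.48 on the log2 scale, at the smallest p that 3 against 3 allows (exact permutation p = 0.1, 0.3 adjusted over 3 ratios), so it did not pass.

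**Figure D2:**
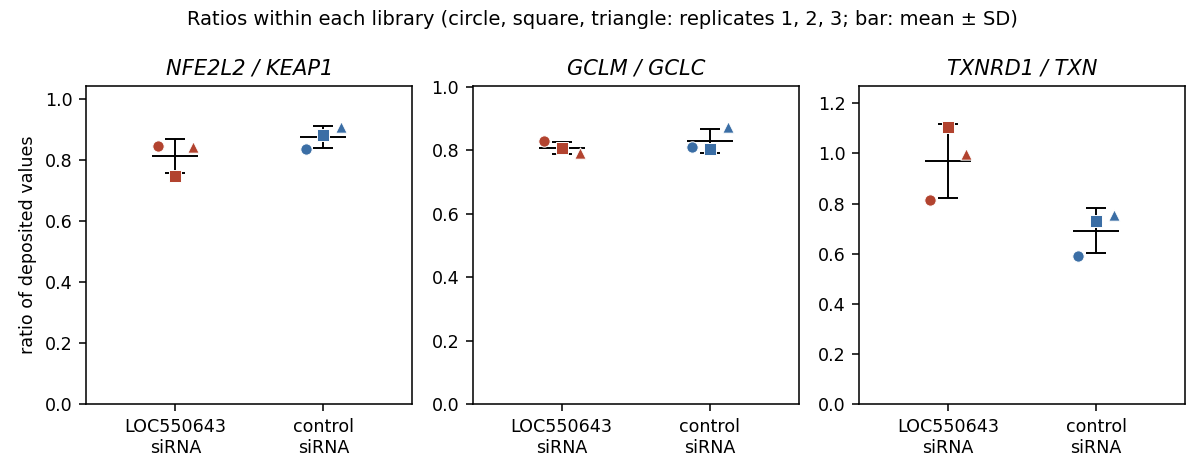
Ratios of deposited values of NFE2L2 to KEAP1, GCLM to GCLC and TXNRD1 to TXN within each library, which do not depend on library scaling. Points are libraries and bars are mean ± SD (n = 3 each). TXNRD1 to TXN is higher in every LOC550643 siRNA library (0.813 to 1.104) than in any control library (0.590 to 0.756), while the other ratios overlap.

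SRXN1, sulfiredoxin, narrowly missed the threshold. It had 45.2, 53.2 and 46.3 CPM in LOC550643 siRNA libraries, against 56.8, 55.1 and 55.8 CPM in control libraries. The groups did not overlap, with LOC550643 siRNA replicate 2 standing close to the control libraries. The log2 fold change was -0.22 (95% CI -0.39 to -0.05, limma adjusted p = 0.0503). That interval leaves out 0 because, unlike the p, it is not adjusted over genes. SRXN1 passed in 6 of 17 alternative settings (adjusted p = 0.0113 to 0.157 over all 17). Without LOC550643 siRNA replicate 2 the value was -0.29 (limma adjusted p = 0.0219), and without control replicate 2 it was -0.24 (limma adjusted p = 0.0443). An unnamed protein-coding model on the same strand shares 2292 exon bases with SRXN1 (NM_080725, chromosome 20, 627268 to 634014, minus strand), so its reads may be of either.

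NQO1, the quinone reductase, was the lowest of the members. It had 6.03, 4.68 and 4.93 CPM in LOC550643 siRNA libraries and 5.90, 4.99 and 5.41 CPM in control libraries. The groups overlapped, the log2 fold change was -0.06 (95% CI -0.37 to 0.24, limma adjusted p = 0.741), and it was 0.008 without LOC550643 siRNA replicate 2. With 41 to 208 read pairs per library behind it, against 217 to 8218 for the other members, NQO1 had the widest interval. It lies on chromosome 16, 69743304 to 69760533 (NM_000903, minus strand), where a long noncoding RNA on the opposite strand shares 575 of its exon bases.

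**Figure D3:**
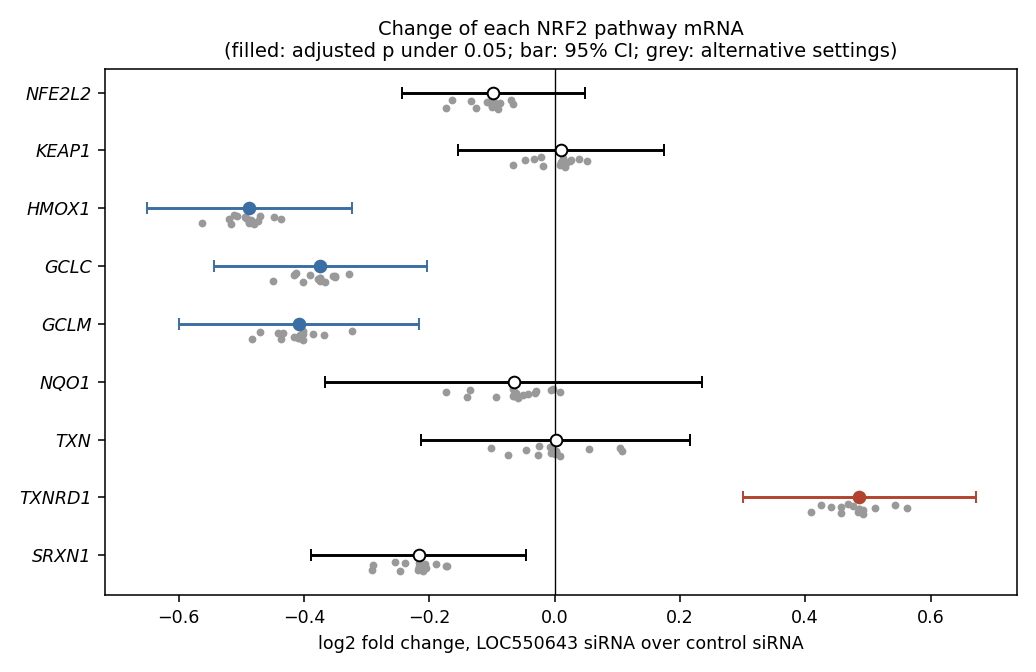
Log2 fold change of each member, LOC550643 siRNA over control siRNA, with its 95% confidence interval, not adjusted over genes. Filled points passed (limma adjusted p under 0.05) and grey points are the values under 17 alternative settings. HMOX1, GCLC, GCLM and TXNRD1 keep their side of 0 in all of them.

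HMOX1, GCLC, GCLM and TXNRD1 kept their direction and passed in all 17 alternatives, with adjusted p of at most 0.00357, 0.0178, 0.0206 and 0.00876. Of the 9 members, 6 had groups that did not overlap, as did 48.5% of all tested genes. None changed by as much as 2-fold. By the size of the change, HMOX1 and TXNRD1 were each above 81.1% of tested genes, GCLM above 74.5%, GCLC above 70.9% and TXN above 0.5%.

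Per length of the listed transcript, TXN was by far the most abundant member, at 250.8 ± 17.4 CPM per kilobase in LOC550643 siRNA libraries and 251.6 ± 34.5 in control libraries (SD, n = 3 each). TXNRD1 came next, at 48.8 ± 4.33 CPM per kilobase with LOC550643 siRNA and 34.8 ± 2.64 with control siRNA. KEAP1 stood at 30.7 ± 2.22 CPM per kilobase with LOC550643 siRNA and 30.4 ± 1.32 with control siRNA. NFE2L2 stood at 22.6 ± 0.334 with LOC550643 siRNA and 24.1 ± 0.919 CPM per kilobase with control siRNA, where HMOX1 was level with it at 24.1 ± 0.477. With LOC550643 siRNA, HMOX1 at 17.2 ± 0.871 and SRXN1 at 18.0 ± 1.61 CPM per kilobase did not differ beyond their spread. GCLC, GCLM and NQO1 closed the order in both groups, at 9.02 ± 0.469, 5.48 ± 0.185 and 2.02 ± 0.277 CPM per kilobase with LOC550643 siRNA and 11.7 ± 0.661, 7.30 ± 0.754 and 2.11 ± 0.177 with control siRNA. Length here is that of the transcript listed, which need not be the isoform these cells use.

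The tested genes whose log2 levels over the 6 libraries were most like those of HMOX1 were GAREML (Pearson r 0.9995), LMX1B (0.9989) and CAP2 (0.9989). In all, 1012 genes had an r of at least 0.95. GAREML, LMX1B and CAP2 fell by 0.51, 0.61 and 0.61 on the log2 scale. Their direction follows from choosing them by likeness to HMOX1 over these same libraries.

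The wider pathway was followed in 7 lists of 118 genes, of which 111 were tested. Of these 30 rose (27.0%) and 17 fell (15.3%), while 64 missed the threshold. Over all tested genes 17.5% were higher and 18.2% lower, and each list's counts below stand beside those shares. Their median log2 fold change was 0.06, against -0.02 over all genes tested. Without LOC550643 siRNA replicate 3, 25 rose and 16 fell, and without control replicate 2, 23 rose and 21 fell. Without LOC550643 siRNA replicate 2, 19 rose and 15 fell. All tested genes gave 2452 higher and 2532 lower, 2623 and 2882, and 2048 and 2343 in those fits, in that order. The balance turned with library totals alone, where 21 rose and 30 fell, beside 2081 higher and 3976 lower of all tested genes. With trends in GC content and length removed 47 rose and 20 fell, beside 4110 and 2840 of all tested genes.

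**Figure D4:**
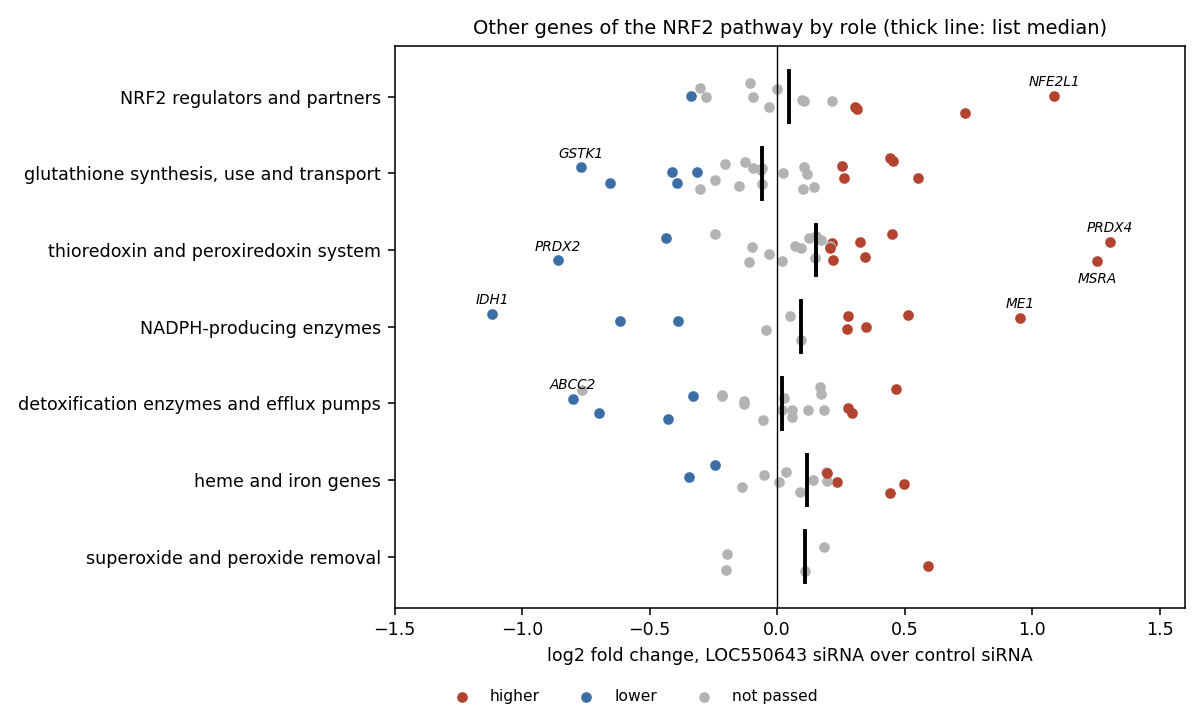
Log2 fold change, LOC550643 siRNA over control siRNA, of the 111 tested genes of the wider pathway, by role. Red points passed upward, blue points passed downward, grey points did not pass, and thick lines are list medians, which run from -0.06 to 0.15. Each list but that of superoxide and peroxide removal holds changes in both directions.

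Among 14 regulators and partners of NRF2, 4 rose (28.6%, against 17.5% of all tested genes) and 1 fell (7.14%, against 18.2%). The median log2 fold change was 0.05. NFE2L1, the relative of NRF2 that controls proteasome genes, had 298.4, 320.1 and 292.7 CPM in LOC550643 siRNA libraries and 142.9, 145.0 and 140.6 CPM in control libraries, a rise of log2 1.09 (limma adjusted p = 1.87e-06). This was the largest change of the list, and far beyond the spread of either group. MAFK, a small MAF partner, had 35.7, 39.7 and 42.9 CPM with LOC550643 siRNA and 24.6, 25.2 and 21.1 CPM with control siRNA (log2 0.74, limma adjusted p = 0.000193). SQSTM1, the autophagy receptor that competes with NRF2 for KEAP1, rose by 0.31 and CUL3, the scaffold of the KEAP1 ligase, by 0.31 on the log2 scale (limma adjusted p = 0.00398 and 0.00734). In the table SQSTM1 overlaps MGAT4B and C5orf45, and MAFK overlaps TMEM184A, on opposite strands. BACH1, the competitor of NRF2, looked up after its value was seen, missed the threshold at log2 -0.10 (limma adjusted p = 0.337). The 1 gene of the list that fell was BACH2, at log2 -0.34 (limma adjusted p = 0.0287).

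In the glutathione list 5 of 24 tested genes rose (20.8%, against 17.5% of all tested genes) and 5 fell (20.8%, against 18.2%), with a median of -0.06. GSTK1, a glutathione transferase of mitochondria and peroxisomes, had 45.7 ± 3.35 CPM with LOC550643 siRNA and 77.8 ± 3.43 CPM with control siRNA (log2 -0.77, limma adjusted p = 3.58e-05). GPX3, the secreted glutathione peroxidase, fell by 0.66 on the log2 scale (limma adjusted p = 0.000232). GPX4, which reduces lipid peroxides, rose by 0.46 and GSTP1, a cytosolic transferase, by 0.44 on the log2 scale (limma adjusted p = 0.00093 and 0.00103). SLC7A11, the cystine importer that feeds the enzyme formed by GCLC and GCLM, was looked up after its value was seen. It stood at 147.0 ± 20.1 CPM with LOC550643 siRNA and 100.4 ± 16.4 CPM with control siRNA (log2 0.55, limma adjusted p = 0.00463), opposite in direction to both subunits.

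In the thioredoxin and peroxiredoxin list 8 of 22 genes rose (36.4%, against 17.5% of all tested genes) and 2 fell (9.09%, against 18.2%), with a median of 0.15. PRDX4, the peroxiredoxin of the endoplasmic reticulum, had 200.8, 177.7 and 178.1 CPM in LOC550643 siRNA libraries and 83.5, 67.1 and 74.8 CPM in control libraries (log2 1.31, limma adjusted p = 3.58e-06). PRDX2, a cytosolic peroxiredoxin and as such a substrate of SRXN1, had 146.1, 138.9 and 131.9 CPM with LOC550643 siRNA and 269.1, 236.1 and 252.0 CPM with control siRNA (log2 -0.86, limma adjusted p = 1.38e-05). Both shifts left the groups far apart and in opposite directions. MSRA, a methionine sulfoxide reductase, was low in both groups and rose, with 4.22 ± 0.650 CPM in LOC550643 siRNA and 1.75 ± 0.299 CPM in control libraries (log2 1.25, limma adjusted p = 0.000377). SESN2, a stress-induced sestrin, rose by 0.45 on the log2 scale (limma adjusted p = 0.00153).

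Of 11 genes listed as NADPH-producing enzymes 5 rose, 3 fell and 3 did not pass (median 0.09). The shares were 45.5% higher and 27.3% lower, against 17.5% and 18.2% of all tested genes. These counts include TALDO1 and TKT (higher) and PGLS (lower), pentose phosphate enzymes that do not themselves make NADPH. NADPH is the electron source for TXNRD1, NQO1 and glutathione reductase. IDH1, the cytosolic isocitrate dehydrogenase, had 36.4, 35.6 and 40.1 CPM with LOC550643 siRNA and 83.2, 72.3 and 88.3 CPM with control siRNA (log2 -1.12, limma adjusted p = 8.23e-06). ME1, malic enzyme, had 47.7, 45.7 and 46.2 CPM with LOC550643 siRNA and 23.9, 21.9 and 26.4 CPM with control siRNA (log2 0.95, limma adjusted p = 1.64e-05). For both enzymes the groups were far apart, in opposite directions. MTHFD1, of folate metabolism, rose by 0.51 and PGLS, of the pentose phosphate pathway, fell by 0.62 on the log2 scale (limma adjusted p = 0.000906 and 0.00128). MTHFD1 overlaps ZBTB25 on the opposite strand.

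Detoxification enzymes and efflux pumps had 3 genes higher and 4 lower of 21 tested (median 0.02). The shares were 14.3% and 19.0%, against 17.5% and 18.2% of all tested genes. ABCC1, which exports glutathione conjugates, had 58.0 ± 3.04 CPM with LOC550643 siRNA and 94.0 ± 5.06 CPM with control siRNA (log2 -0.70, limma adjusted p = 4.63e-05). EPHX1, microsomal epoxide hydrolase, fell by 0.43 (limma adjusted p = 0.00131), and ALDH7A1, an aldehyde dehydrogenase, rose by 0.47, both on the log2 scale (limma adjusted p = 0.00134). EPHX1 overlaps TMEM63A on the opposite strand. ABCC2, at 1.19 ± 0.0586 CPM with LOC550643 siRNA and 2.13 ± 0.482 CPM with control siRNA, passed at log2 -0.80 (limma adjusted p = 0.0129) but not without control replicate 1 (adjusted p = 0.0673) or with all libraries thinned to the shallowest (0.0895). AKR1B10 and UGT1A6 had no reads in any library, which allows up to 0.083 to 0.349 CPM by library (3 read pairs, for counting error only).

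Of 14 heme and iron genes 4 rose (28.6%, against 17.5% of all tested genes) and 2 fell (14.3%, against 18.2%), with a median of 0.12. FECH, which forms heme by inserting iron, rose by 0.50 on the log2 scale (limma adjusted p = 0.000676). It stood at 54.9 ± 4.22 CPM with LOC550643 siRNA and 38.8 ± 1.89 CPM with control siRNA. FTH1, the ferritin heavy chain, rose by 0.44 on the log2 scale (limma adjusted p = 0.00249), though it has many processed pseudogenes that can share its reads and overlaps BEST1 on the opposite strand. SLC48A1, a heme transporter that overlaps HDAC7, fell by 0.34 on the log2 scale (limma adjusted p = 0.00395). TFRC, the transferrin receptor, passed at log2 -0.25 (limma adjusted p = 0.0241), but not without control replicate 2, LOC550643 siRNA replicate 2 or LOC550643 siRNA replicate 3 (adjusted p = 0.0575, 0.0797 and 0.0549). HMOX2, the constitutive heme oxygenase, looked up after its value was seen, had 51.0 ± 2.79 CPM with LOC550643 siRNA and 43.3 ± 1.26 CPM with control siRNA (log2 0.24, limma adjusted p = 0.0257), opposite in direction to HMOX1.

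For removal of superoxide and peroxide, 1 of 5 tested genes rose and 0 fell by limma, and 0 fell by edgeR or DESeq2. At an unadjusted limma p under 0.05, 2 were higher and 2 lower. That cut is loose. Over the whole series at least 7379 of the 16245 tested genes met it in either direction, against 5793 at the adjusted threshold. SOD2, the mitochondrial superoxide dismutase, had 80.03, 90.2 and 99.3 CPM in LOC550643 siRNA libraries and 58.3, 57.2 and 62.5 CPM in control libraries (log2 0.59, limma adjusted p = 0.000357). CCS, the copper chaperone of SOD1, was at log2 -0.20 (limma adjusted p = 0.0813), and PARK7, a redox-sensitive chaperone, at -0.20 (limma adjusted p = 0.0999). CAT, catalase, was at log2 0.18 (limma adjusted p = 0.102). CCS and PARK7 passed downward with library totals alone (adjusted p = 0.0208 and 0.0287), PARK7 also without control replicate 2 (-0.31, adjusted p = 0.00369), and CAT passed upward with GC and length trends removed (0.22, adjusted p = 0.0197).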

How the data were processed

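Poly-A RNA of 6 libraries was sequenced as read pairs. Per the submitters' processing notes reads were aligned to hg19 with STAR 2.4.0 and, per the file headers, counted over exons with HOMER (1 entry per gene, no strand option) and compared with edgeR. The deposited library values are a signal, exon read counts that the authors scaled so that each library sums to 29401170 to 29401184. All were whole multiples of 1 step per library (100% within 0.1 step plus rounding), taken as 1 read end, since the depths then average the deposited total. The authors' own log2 fold changes and p-values, also deposited, were used only where named.

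Genes were kept by edgeR's filter, a CPM cutoff equal to 10 read pairs at the median depth, reached in at least 3 libraries. A kept gene can therefore have fewer pairs in a library, above all in the shallowest. The main test was limma 3.58.1 (mean trend, two-sided) on log2(value + 1 unit, 0.034 CPM) after TMM scaling on recovered reads, with Benjamini-Hochberg adjustment over 16245 genes. Fold changes on this scale understate those of low genes. edgeR 4.0.16 (quasi-likelihood, 2859 genes called higher and 2992 lower) and DESeq2 1.42.0 (2991 and 2918) on recovered read ends were alternatives, with R 4.3.3 and Python 3.11.15. The fit was also run on simulated data with far fewer changed genes than were called here, so that run does not gauge these results. Members and lists were chosen with earlier results of these data known. Named genes are the 9 members, up to 4 genes per list with the smallest p, and the 3 most like the member with the largest change, HMOX1 (log2 -0.487, against 0.486 for TXNRD1, which was the larger with edgeR, DESeq2 and median-of-ratios scaling, among other settings). The labels do not say if replicates were separate cultures or passages, so the spread behind each p-value may be technical. All pairs of replicates differed by more than sampling noise (chi-square over degrees of freedom 5.47 to 41.8). In bulk RNA fewer expressing cells and less RNA per cell cannot be told apart.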

Additional observations from a re-analysis of the deposited data

How the results depend on the processing

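Of 153 values of the 9 members under 17 alternatives, 133 kept direction and side of the threshold, 6 (all SRXN1) newly passed and 14 changed sign, none of these past the threshold. KEAP1 was at -0.019, -0.066 and -0.021 with upper-quartile scaling, library totals alone and thinning to the shallowest library, and ran from -0.047 to 0.052 with each library left out. TXN was at -0.027, -0.074 and -0.025 under the same settings and -0.005 with edgeR, and from -0.102 to 0.104 with libraries left out, NQO1 from -0.173 to 0.008. The GCLM to GCLC difference ran from -0.055 to 0.003. Of the wider genes, 21 were higher and 30 lower with library totals alone, which turns the balance of 30 and 17, and 47 were higher and 20 lower with GC and length trends removed. With an adjusted p of 0.01, 18 were higher and 11 lower, as were 1770 and 1751 of all tested genes. Leaving out libraries gave 19 to 26 higher and 14 to 21 lower, beside 2048 to 2623 and 2237 to 2882 of all tested genes. The cause was not tested. Among all called genes 49.0% were higher, 34.4% with library totals alone (2081 higher, 3976 lower) and 59.1% with GC and length trends removed (4110 and 2840). That fit, the thinning and the block in edgeR were chosen after seeing the data. GC values covered 90.4% of tested genes. Same-numbered libraries correlated in their deviations from group means at 0.058, -0.283 and -0.12. With means of 3 libraries each, these values cannot tell if the numbers pair the libraries. With the replicate number as a block, limma called 2671 higher and 2718 lower genes, and the members stayed at 1 higher and 3 lower. NQO1, with the fewest reads of the members, had the widest interval.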
